A study of Mus musculus with 2 samples.

Results

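Macrophages of the spleen clear dying cells and worn-out red blood cells, and 9 genes that serve these tasks are described here. C1qa, C1qb and C1qc encode the chains of C1q, which starts the classical complement pathway and coats dying cells. Axl and Mertk encode receptor tyrosine kinases that, through bridging proteins, bind phosphatidylserine on dying cells, and Vcam1 encodes an adhesion molecule of red pulp macrophages and of some stromal and myeloid cells. Hmox1 encodes haem oxygenase 1, which breaks down haem, Slc40a1 encodes ferroportin, which exports iron from the cell, and Spic encodes the transcription factor needed for red pulp macrophages. The genes were chosen by name, and these are 9 of the 32285 genes in the deposited table.

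Spleen cells of wild-type C57BL/6 mice, labelled as 8 weeks old, were sequenced in 1 multiplexed pool after collection on day 80. With sensitisation from day 0, this cannot be their age at collection. All mice had been sensitised with ovalbumin (OVA) in Alum on days 0 and 10. They then stayed untreated, or received OVA in PBS on days 20, 22 and 24 followed by OVA in Alum on days 40 and 60, or the DCIR-2-Fusion protein-OVA on days 20, 22 and 24, and they were challenged with OVA before collection. Spleens were pressed through a 70 µm strainer without an enzyme step being named, red blood cells were lysed, and the cells were stimulated for 3 h with PMA and ionomycin. CD45+CD11b- and CD45+CD11b+ cells were then sorted, pooled 1:1 and frozen before library preparation, so the proportions of cell types were set by the sort, and CD45- stromal cells were not collected.

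The gene expression library and the hashtag library shared the same 16829 cell barcodes. The values are counts of unique molecular identifiers (UMIs), so each stands for 1 captured RNA molecule. The barcodes held between 502 and 98727 UMIs, with a median of 6334. Cells were kept with at least 200 detected genes and at most 10% UMIs of mitochondrial genes, which left 16325 cells. The 4 hashtags are not paired with the 3 conditions in the labels, so all hashtags were pooled and no comparison between treatments was made. The pool is 1 sample and cells are not replicates. Levels are therefore given as CPM (the UMIs of a gene for each 1000000 UMIs in the group of cells), each with an exact 95% interval from the Poisson distribution, shares of cells with exact Clopper-Pearson 95% intervals, and no p-value was computed. These intervals cover counting error only. Fewer transcripts in each cell and fewer expressing cells in a group cannot be told apart by CPM alone, so the number of cells with a UMI is given beside it.

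Cells were grouped by summed UMIs of a few genes, and a cell could meet more than 1 gate. For 4 myeloid gates, Cd3e, Ms4a1 and Ncr1 had to be at 0. At least 3 UMIs of Ccl24, St18 and Slc4a4 defined a gate of 157 cells, at least 2 of Csf1r, Ms4a6c and Fcgr1 the monocyte-like gate of 466 cells, at least 2 of Cd209a, Clec10a and Xcr1 the DC gate of 49 cells, and at least 20 of S100a8 and S100a9 the neutrophil gate of 145 cells. At least 2 UMIs of Cd79a and Ms4a1 gave 2809 B cells and at least 2 of Cd3d and Cd3e 1849 T cells. Further gates asked for at least 2 UMIs of Ncr1 and Klre1 (4839 NK cells), at least 2 of Mcpt8 and Prss34 (39 basophils), at least 3 of Mpo and Elane (69 cells) and at least 3 of Ccr7 and Fscn1 (1632 cells). The last group was named by its gate genes only, because 85.2% of its cells carried the B cell transcript Ebf1. The median depth was 13727 UMIs in the St18/Ccl24/Slc4a4 gate, 10537.5 in monocyte-like cells, 12752 in the DC gate, 12099 in neutrophils, 10431 in B cells, 10474 in T cells and 5778 in NK cells. The first gate shared 57 cells with the monocyte-like gate, and 29 of the 49 DC gate cells were also monocyte-like.

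The St18/Ccl24/Slc4a4 cells were proposed as macrophage-like, but the data did not carry a resident splenic macrophage name. Adgre1, which encodes F4/80, reached 18.6 CPM there against 24.8 CPM in the neutrophil gate. Of 14 markers listed for red pulp macrophages, 4 had no UMI in these cells (Cd5l, Treml4, Siglec1 and C1qc), and Cd163 had 0.358 CPM. The 14 markers together had 75.6 CPM, against 103 CPM in the monocyte-like gate. Csf1r is on this list and is also a gate gene of the monocyte-like gate, so these sums cannot rank the gates. The list also holds genes described here, such as Spic, Mertk and C1qb, and is not independent of them. Of 4 markers listed for marginal zone macrophages, Marco, Cd209b and Siglec1 were at 0, while Timd4 had 7.53 CPM from 21 UMIs. Leading genes of the gate besides its own 3 were Lpl, Mpo, Gm4951, Spp1, Ctsg, Rai14 and Cxcl9, with Mpo in 15 and Rai14 in 103 of the 157 cells. Spp1 and Lpl were also leading genes of the monocyte-like gate, and Cxcl9 of the DC gate. The St18/Ccl24/Slc4a4 cells are called by their gate genes below. This name does not mean that each cell carried all 3, as St18 was detected in 136 of the 157 cells, Slc4a4 in 51 and Ccl24 in 19. The monocyte-like cells had Lyz2 at 1190 CPM and Ccr2 at 67.6 CPM, but 72 of them also met the B gate and 31.3% carried Ebf1. The 12 markers listed for monocytes, which include the gate genes, summed to 2700 CPM there and 4108 CPM in the neutrophil gate. The neutrophil gate had Camp at 15587 CPM and Csf3r at 154 CPM. In the DC gate, Flt3 had 13.5 CPM and Zbtb46 128 CPM, where NK cells had Zbtb46 at 101 CPM. Itgax had 89.2 CPM in the DC gate and 47.0 CPM in monocyte-like cells, and Clec4a4 had no UMI in the DC gate. The 11 markers listed for DC, which include the gate genes, summed to 3358 CPM there. They summed to 1585 CPM in monocyte-like cells and 381 CPM in NK cells. The haemoglobin genes Hba-a1 and Hba-a2 had no UMI in any of the 4 myeloid gates, and the stromal genes Cxcl12 and Ccl21a had none in the kept cells.

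The 9 genes were sparse, and 92.1% of the kept cells had no UMI of any of them. Hmox1 was the most often detected, with 1550 UMIs in 680 cells, followed by Vcam1 with 949 UMIs in 166 cells and Axl with 853 UMIs in 433 cells. Spic had 108 UMIs, C1qb 78, Slc40a1 74, Mertk 60, C1qa 14 and C1qc 10. Only 2 cells had UMIs of 5 of the genes, and none had more. The map of where the UMIs lay shows that no single group of cells held the largest share of every gene. Vcam1 and Slc40a1 lay mostly in the neutrophil gate, while the largest share of Axl was in B cells and that of C1qb in monocyte-like cells, and Hmox1 was spread over most groups.

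**Figure D1:**
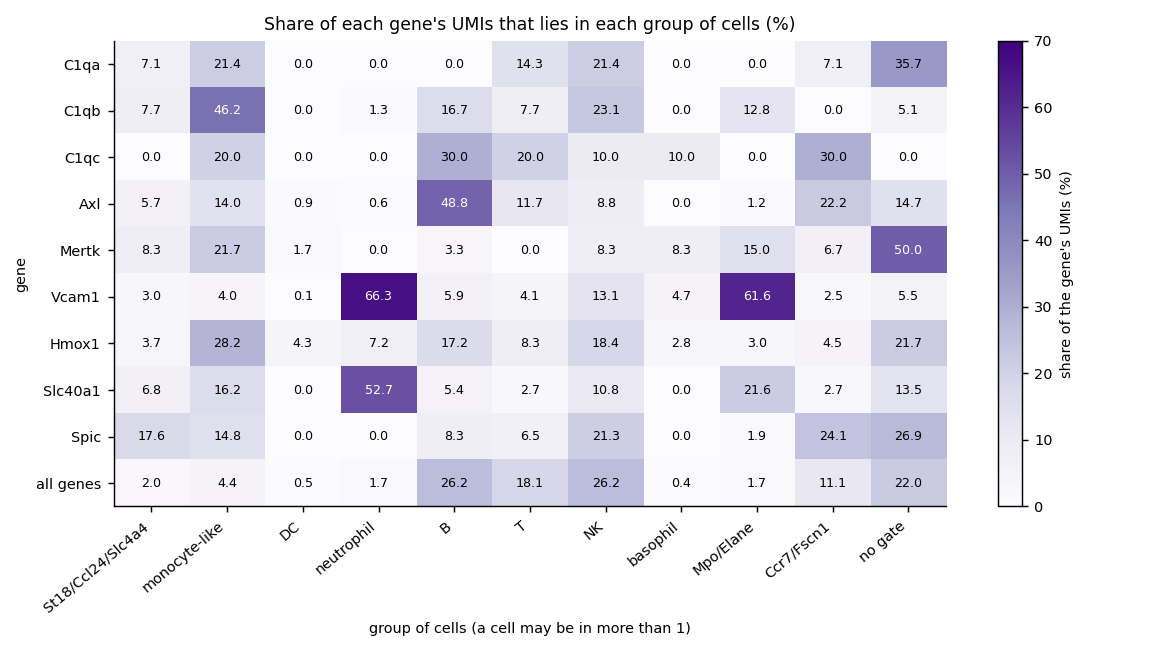
Share of the UMIs of each gene (rows, in percent) that lies in each group of cells (columns, which overlap), with the share of the UMIs of all genes in the last row. The neutrophil gate held 66.3% of the Vcam1 UMIs and 52.7% of the Slc40a1 UMIs with 1.65% of all UMIs, and the B gate held 48.8% of the Axl UMIs.

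C1q, the complement member of the set, was close to absent. In the St18/Ccl24/Slc4a4 gate, C1qa had 1 UMI, C1qb 6 UMIs in 3 cells and C1qc none, where 3 counts would be 1.08 CPM. The monocyte-like gate had the highest C1qb level, with 36 UMIs in 13 of 466 cells, or 5.94 CPM (4.16 to 8.22). C1qb was found there in 2.79% of the cells (1.49 to 4.72), against 0.249% of B cells and 0.216% of T cells, which do not make C1q and had nearly the same median depth. After each cell had been thinned to 1000 UMIs, C1qb was seen in 2 of the 466 monocyte-like cells, or 0.429% (0.0520 to 1.54). It was then seen in 1 of the 2809 B cells, or 0.0356% (0.000901 to 0.198), so the intervals overlapped. Neutrophils had 1 C1qb UMI and no UMI of the other chains, where 3 of the 145 cells would be a share of 2.07% with a UMI, and the DC gate had no C1q UMI at all.

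The 3 chains were not detected together. The C1q genes lie side by side on the minus strand of GRCm38 chromosome 4 within 18675 bases (GENCODE vM21), with C1qb at chr4:136880129-136886187, C1qc at chr4:136889804-136893065 and C1qa at chr4:136895917-136898803. Their products assemble into 1 protein, and macrophages that make it usually carry all 3 transcripts. Here 51 cells had a C1q UMI, 3 of them had UMIs of 2 chains, and none had all 3. With only 14 C1qa UMIs and 10 C1qc UMIs in all kept cells, these counts cannot show whether a cell made all 3 chains. C1qb was seen without C1qa and C1qc in 31 of its 34 cells. The 2 cells richest in C1qb, 1 of them in the monocyte-like gate and 1 in the NK gate, had 12 C1qb UMIs each. Without the richest cell, the C1qb level of the monocyte-like gate was 3.98 CPM. Because the sequenced ends of the transcripts can differ in capture, the counts of the chains do not give their molar ratio.

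As the chain with the most UMIs, C1qb is shown with the 250 bases before its RefSeq start (GRCm38.p6, chr4:136886201-136886450, minus strand, written 5′ to 3′ along the gene), in which the letters GAGGAA, a core bound by PU.1 and related factors such as SpiC, are in capitals.
C1qb: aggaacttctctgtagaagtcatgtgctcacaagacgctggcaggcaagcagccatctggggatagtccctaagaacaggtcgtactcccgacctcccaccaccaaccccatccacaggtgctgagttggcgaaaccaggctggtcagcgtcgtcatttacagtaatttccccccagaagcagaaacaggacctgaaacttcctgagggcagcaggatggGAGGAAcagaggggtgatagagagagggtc
The match begins 30 bases before the start. Windows of this kind were given for 5 of the 9 genes, and GAGGAA or its reverse TTCCTC was found in those of C1qb, C1qc and Axl and not in those of Mertk and Spic. The same letters were in 23.3% of all 32851 such windows, so a match is a description of the letters only.

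The receptors for dying cells differed in where they were found. Axl reached 19.6 CPM (16.3 to 23.5) in monocyte-like cells, with a UMI in 51 of 466 cells, and 17.6 CPM (13.0 to 23.2) in the St18/Ccl24/Slc4a4 gate, with a UMI in 22 of 157 cells. These levels overlapped in their intervals, and the DC gate with 10.8 CPM (4.67 to 21.3) overlapped with both. Neutrophils had 2.22 CPM (0.720 to 5.18), from 5 UMIs in 2 cells. In the gates of lymphocytes, Axl had 11.6 CPM (10.5 to 12.8) in B cells, 4.05 CPM (3.30 to 4.93) in T cells and 2.10 CPM (1.65 to 2.63) in NK cells. The B cells were thus below the monocyte-like cells and above T and NK cells beyond counting error. The Ccr7/Fscn1 gate, which shared 342 cells with the B gate, had 12.5 CPM (10.7 to 14.4), from 189 UMIs in 79 cells. With only the cells that met exactly 1 of the 4 myeloid, B, T and NK gates, Axl in monocyte-like cells was 22.2 CPM.

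Mertk, a relative of Axl, was found in 17 kept cells. It had 5 UMIs in 3 cells of the St18/Ccl24/Slc4a4 gate, 13 UMIs in 6 monocyte-like cells, 1 UMI in the DC gate and none in neutrophils, where 3 counts would be 1.33 CPM. The highest levels were in basophils, from 5 UMIs in 1 cell (8.19 CPM), and in the Mpo/Elane gate, from 9 UMIs in 3 cells (3.96 CPM), and their intervals overlapped with that of the monocyte-like gate. The cell with 5 UMIs was in both gates, and without it the Mpo/Elane gate had 1.81 CPM. B cells had 2 Mertk UMIs and T cells none. Tyro3, the third receptor of the family, had no UMI in the 4 myeloid gates, and Gas6, the ligand of Axl, had 1 UMI in the St18/Ccl24/Slc4a4 gate.

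Of 60 Mertk UMIs in the kept cells, 29 were in 1 cell that met no gate. This cell had 4994 UMIs and 2004 detected genes. It also had 20 UMIs of Vcam1, 4 of Slc40a1, 3 of Spic and 1 of Axl, so it was 1 of the 2 cells with 5 of the 9 genes. It had 8 UMIs of Itgad, which encodes CD11d, an integrin of red pulp macrophages, but none of C1qa, C1qb, C1qc, Hmox1, Adgre1 or Cd163. A single cell is a description of that barcode and gives no level for a cell type.

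Axl in the B gate was not evenly spread. The 2590 B cells outside the T and NK gates had 372 Axl UMIs in 166 cells, and they were split by detection of other genes, chosen after their values had been seen. Cells that also met the monocyte-like gate, 72 in the whole B gate, were not left out. B cells with Apoe, which encodes a lipid carrier, had Axl at 28.7 CPM (25.5 to 32.3) against 4.46 CPM (3.59 to 5.48) without it. For Fcer1g, the common gamma chain of Fc receptors, the levels were 29.7 and 6.98 CPM. For Bhlhe41, a transcription factor of B-1 cells, they were 26.9 and 7.97 CPM. Axl was also higher with Itgax (24.4 against 10.7 CPM), Cd9 (17.9 against 4.83 CPM), S100a6 (17.4 against 10.8 CPM) and Il10 (17.6 against 10.5 CPM). For Cr2, the complement receptor of marginal zone and follicular B cells, the order was the other way, with 3.82 CPM (2.58 to 5.45) in cells with it and 15.3 CPM (13.7 to 17.0) without. Fcer2a, which encodes CD23 of follicular B cells, gave 3.47 and 15.9 CPM.

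Cells with and without a gene differed in depth, which touches the detection of that gene. The median was 12708 UMIs in B cells with Apoe and 8924 without. Thinned to 1000 UMIs, Axl was seen in 2.90% of the B cells with Apoe and 0.316% of those without, and in 0.475% with Cr2 and 1.17% without. For Il10 the thinned shares were nearly level, at 0.977% with it and 1.01% without. The part of doublets of B and myeloid cells in these differences was not tested. Scrublet, a doublet caller, marked 15.5% of the B gate and 8.18% of all kept cells. More cells carried several hashtags, 866 of 2809 in the B gate and 4375 of all 16325 kept cells. Both kinds of marked cells stayed in these levels.

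**Figure D2:**
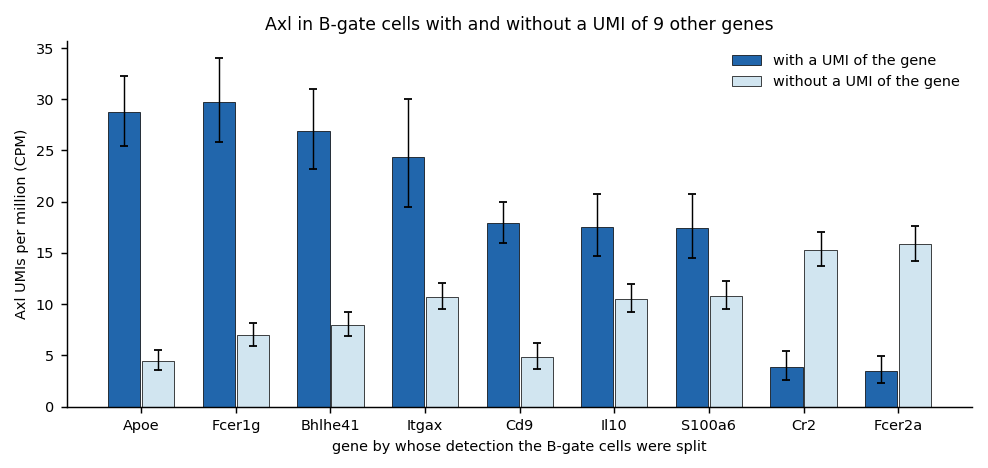
Axl level (y axis, CPM) in the 2590 B-gate cells outside the T and NK gates, split by whether each of 9 genes (x axis) had a UMI in the cell, with exact Poisson 95% intervals. Axl was higher with Apoe (28.7 against 4.46 CPM) and Fcer1g, and lower with Cr2 (3.82 against 15.3 CPM) and Fcer2a.

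Vcam1 had the widest range of the set in absolute CPM. The neutrophil gate had 629 UMIs in 52 of 145 cells, or 279 CPM (258 to 302), and the Mpo/Elane gate, which shared 32 cells with it, had 257 CPM (237 to 279). The intervals of both overlapped and were above those of all other gates. As a mean over cells, the neutrophil level was 164 CPM and that of the Mpo/Elane gate 316 CPM. A UMI was found in 35.9% of neutrophils and 59.4% of the Mpo/Elane cells. Basophils followed with 73.7 CPM (53.8 to 98.7), from 5 of 39 cells. The gates in which a macrophage marker would be looked for had far less, with 10.0 CPM (6.67 to 14.5) in the St18/Ccl24/Slc4a4 cells, 6.27 CPM (4.43 to 8.60) in monocyte-like cells and 1.35 CPM from 1 UMI in the DC gate. Lymphocytes had between 1.56 and 3.47 CPM, with the highest value in NK cells, where 1 cell held 49 of 124 UMIs. With cells thinned to 1000 UMIs, Vcam1 was seen in 17 of 142 neutrophils, 15 of 68 Mpo/Elane cells, 0.429% of monocyte-like cells and 0.142% of B cells.

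Within the neutrophil gate, Vcam1 followed the granule transcripts. Developing neutrophils make primary granule proteins such as Mpo and Elane first, then secondary granule proteins such as Camp, Ngp and Ltf, and mature cells carry Csf3r and Cxcr2. The cells were split by these genes after their values had been seen. The 32 cells with at least 3 UMIs of Mpo and Elane had Vcam1 at 482 CPM (441 to 525), with a UMI in 30 of the 32. The 55 cells without these but with at least 20 UMIs of Camp and Ngp had 114 CPM (93.1 to 138), with a UMI in 21 cells. The remaining 58 cells, with Csf3r at 1018 CPM, had 1 Vcam1 UMI, or 3.83 CPM (0.097 to 21.3). Vcam1 was thus highest in the cells with primary granule transcripts and nearly undetected in the cells with neither set. The 32 cells with Mpo and Elane held 525 of the 629 Vcam1 UMIs of the gate.

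Depth differed between these stages, with a median of 2862 UMIs in the 58 remaining cells. Thinned to 1000 UMIs, Vcam1 was seen in 14 of 31 cells with Mpo and Elane, in 2 of 55 cells with Camp and Ngp only and in 1 of 56 remaining cells. Cells with Mpo or Elane that did not pass the neutrophil gate, 37 in number, had Vcam1 at 50.7 CPM (38.7 to 65.3).

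Slc40a1 also had its highest level in the neutrophil gate, and there its order was another. The gate had 39 UMIs in 29 of 145 cells, or 17.3 CPM (12.3 to 23.7), against 1.98 CPM (1.02 to 3.46) in monocyte-like cells, 1.79 CPM (0.582 to 4.18) in the St18/Ccl24/Slc4a4 cells and none in the DC gate. The neutrophil level was 35.2 CPM with cells thinned to 1000 UMIs and 49.2 CPM as a mean over cells. B, T and NK cells had between 0.0810 and 0.224 CPM, and a UMI was found in 20.0% of neutrophils and 0.142% of B cells. Within the gate, the cells with Mpo and Elane had 13.8 CPM (7.70 to 22.7), those with Camp and Ngp only 9.97 CPM (4.56 to 18.9), and the remaining cells 57.4 CPM (32.1 to 94.7). The remaining cells, which nearly lacked Vcam1, were above the other stages in the Slc40a1 level beyond counting error, while the shares of cells with a UMI, 31.3%, 14.5% and 19.0% in the same order, overlapped in their intervals. The richest cell had 4 UMIs, so the level did not rest on 1 cell. Vcam1 and Slc40a1 were found together in 11 cells of the gate, of 52 and 29 with each.

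**Figure D3:**
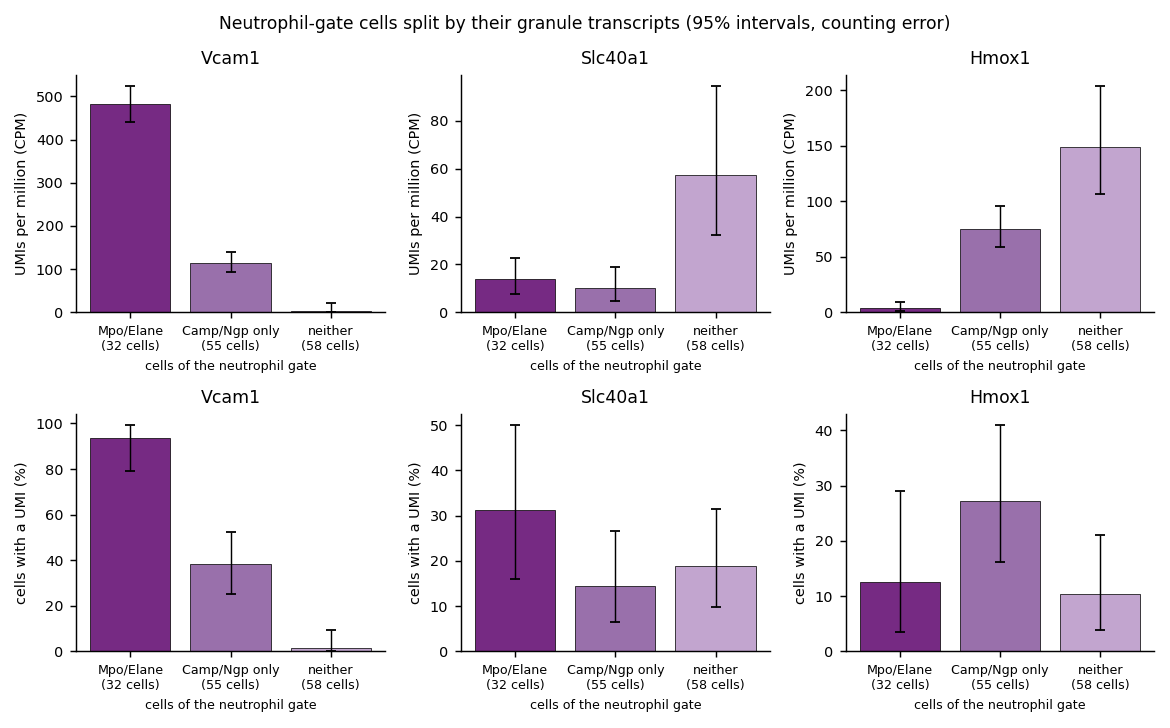
Level (top, CPM) and share of cells with a UMI (bottom, percent) of Vcam1, Slc40a1 and Hmox1 in 3 groups of neutrophil-gate cells split by granule transcripts, with 95% intervals of counting error. Vcam1 was 482, 114 and 3.83 CPM from the Mpo/Elane cells to the cells with neither set, and Slc40a1 was 13.8, 9.97 and 57.4 CPM.

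Hmox1 was present in each gate. It had 90.6 CPM (70.2 to 115) in the DC gate, 72.1 CPM (65.5 to 79.1) in monocyte-like cells, 70.5 CPM (51.0 to 94.9) in basophils and 49.2 CPM (40.5 to 59.3) in neutrophils, and each of these overlapped with its neighbour in that order. The St18/Ccl24/Slc4a4 cells had 20.8 CPM (15.8 to 26.9), below the neutrophils, and B, T and NK cells between 5.19 and 7.97 CPM. The place of the DC gate rested on 1 cell, which held 56 of its 67 UMIs and was also monocyte-like. Without it, the DC gate had 15.0 CPM. By stage of the neutrophil gate, Hmox1 had 3.67 CPM in the cells with Mpo and Elane, 75.3 CPM in those with Camp and Ngp only and 149 CPM in the remaining cells, and 43.6 and 61.5 CPM in the last groups without the richest cell of each.

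In the monocyte-like gate, 36 cells with 3 or more Hmox1 UMIs held 81.2% of the Hmox1 of the gate, and 366 cells had none. Hmox1 was seen in 21.5% of the cells (17.8 to 25.5), and thinned to 1000 UMIs in 6.65%, against 5.98% and 0.320% of B cells. The 57 cells that also met the St18/Ccl24/Slc4a4 gate had 37.2 CPM (27.5 to 49.1), and the 100 cells of that gate outside the monocyte-like gate had 6.12 CPM (2.80 to 11.6).

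Spic was highest in the St18/Ccl24/Slc4a4 gate, with 19 UMIs in 7 of 157 cells, or 6.81 CPM (4.10 to 10.6). Monocyte-like cells had 2.64 CPM (1.51 to 4.28), the Ccr7/Fscn1 gate 1.71 CPM (1.12 to 2.51) and B cells 0.251 CPM (0.115 to 0.477), and neutrophils and DC had none. The order at the top rested on 1 cell with 13 UMIs, without which the first gate had 2.16 CPM, and without hashtag 11 it had 2.70 CPM. The same cell held 13 of the 26 Spic UMIs of the Ccr7/Fscn1 gate, which had 0.858 CPM without it.

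**Figure D4:**
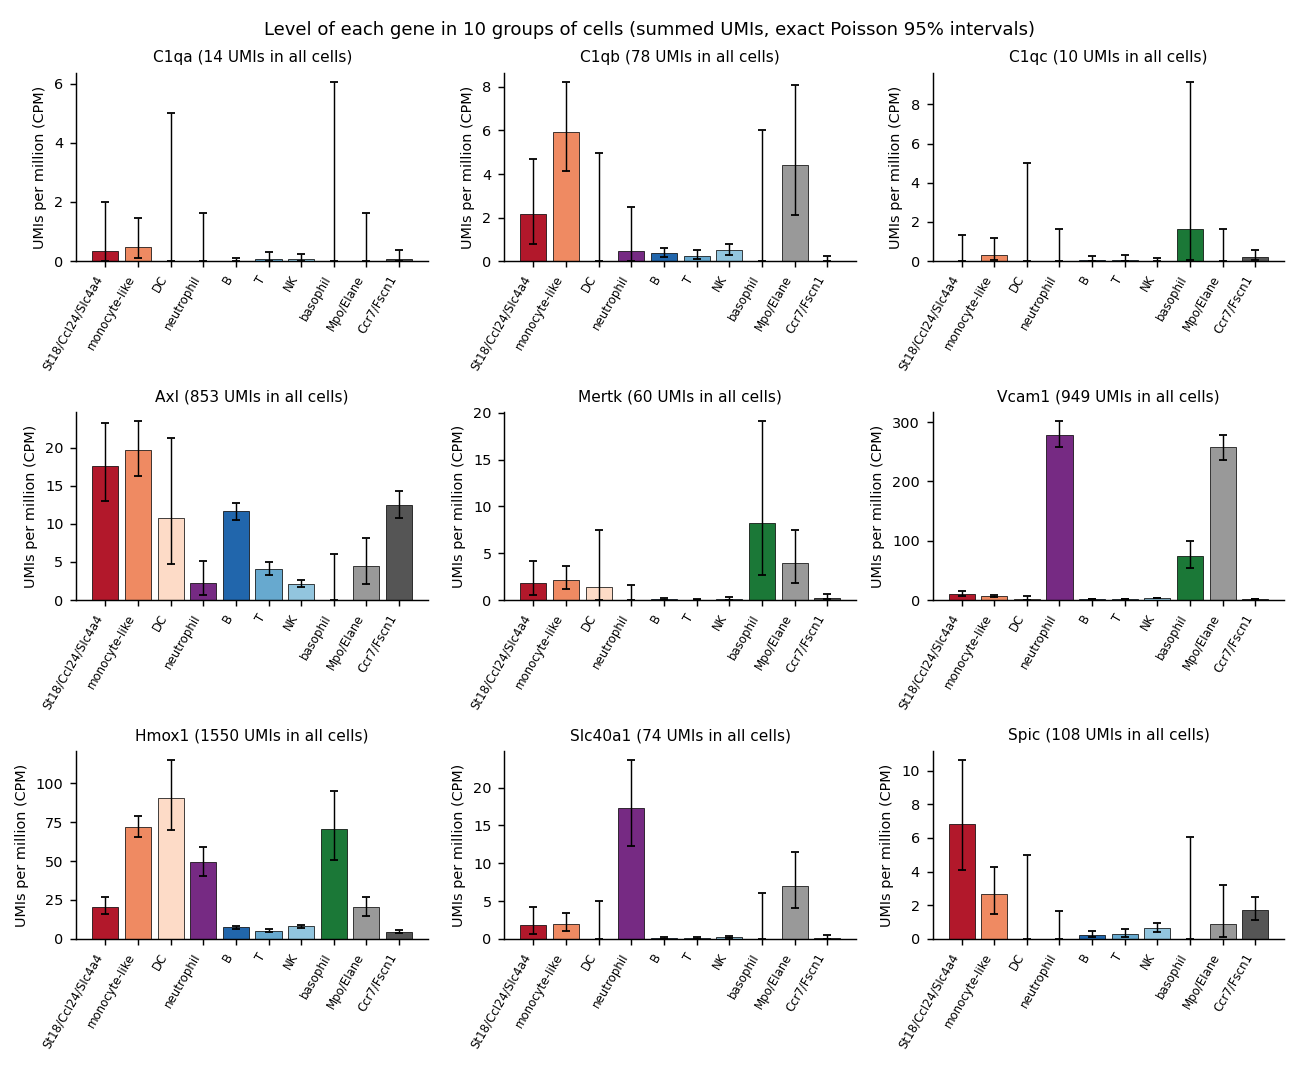
Level of each of the 9 genes (y axes, CPM, scaled per panel) in 10 groups of cells (x axis), as summed UMIs with exact Poisson 95% intervals. Vcam1 is highest in the neutrophil and Mpo/Elane gates (279 and 257 CPM), which share cells. Slc40a1 is highest in the neutrophil gate (17.3 CPM) and C1qb in the monocyte-like gate (5.94 CPM). Axl is above 10 CPM in B cells and the Ccr7/Fscn1 gate as well as in 3 myeloid gates, and C1qa and C1qc have only 14 and 10 UMIs in all kept cells.

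Pairs of gates were compared by the ratio of CPM, and a gene with at least 20 UMIs in both gates together was called at a ratio of at least 4. Cells that met both gates were counted on both sides. Between the St18/Ccl24/Slc4a4 and the monocyte-like gate, 5 of the 9 genes could be assessed and none was called, where 1.12% of 11118 genes were called higher and 1.02% lower. Hmox1 came closest, at 3.47 times more in monocyte-like cells. When the 57 shared cells were left out, Hmox1 was called lower and Spic higher in the St18/Ccl24/Slc4a4 cells. The Spic call rested on 1 cell with 13 of 15 UMIs, without which the level was 1.38 CPM against 2.53 CPM in the monocyte-like cells outside the gate.

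Against neutrophils, 4 genes could be assessed. The St18/Ccl24/Slc4a4 cells were called higher in Axl, at 7.92 times (3.17 to 25.5), and lower in Vcam1, at 27.8 times (19.1 to 42.2), and in Slc40a1, at 9.66 times (3.80 to 31.4). Of 10236 genes, 9.12% were called higher and 5.78% lower. Between neutrophils and monocyte-like cells, a comparison added after the levels had been seen, 5 genes could be assessed. Neutrophils were called higher in Vcam1, at 44.5 times (32.1 to 63.5), and in Slc40a1, at 8.74 times (4.49 to 18.3), where 6.53% of 11070 genes were called higher. They were called lower in Axl, at 8.85 times (3.69 to 27.7), and in C1qb, on 1 UMI against 36, at 13.4 times (2.25 to 543), where 9.42% were called lower. Both comparisons share the neutrophils.

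Against the DC gate, 3 genes could be assessed for the St18/Ccl24/Slc4a4 cells. Vcam1 was called higher on 28 UMIs against 1, at 7.42 times (1.23 to 303), and Hmox1 lower at 4.36 times, with 4.03% of 9313 genes called higher and 0.58% lower. The Hmox1 call rested on the cell with 56 UMIs. For monocyte-like cells, Vcam1 was called higher on 38 UMIs against 1, at 4.63 times (0.781 to 188), with 2.64% of 10418 genes called higher and 0.47% lower, none of the 9 among the latter. The interval of that ratio reached below 1, and with the 29 shared cells left out Vcam1 was no longer called and Hmox1 was called higher.

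The lists of other genes of these pathways were described by the same rule. Of 26 further complement genes, 12 could be assessed between the St18/Ccl24/Slc4a4 and monocyte-like gates, and none was called, with a median ratio of 0.718 against 1.05 over all genes assessed. The highest there were Cr1l, a regulator of C3 convertases, at 81.7 CPM, Itgb2, the shared chain of complement receptors 3 and 4, at 77.8 CPM, and Cfp, which encodes properdin, at 39.8 CPM. Against neutrophils, 1 of 11 was called higher and 4 lower, with a median of 0.621 against 1.25, where 9.12% of all genes were called higher and 5.78% lower. C3, the central component, had 404 CPM in neutrophils and 37.3 CPM in the St18/Ccl24/Slc4a4 cells, and C5ar1, the receptor for C5a, 150 and 8.60 CPM. C3ar1, the receptor for C3a, had 0.444 CPM in neutrophils and 23.7 CPM in those cells. Vsig4, a complement receptor of tissue macrophages, had no UMI in the 4 gates. The genes named from C3 to Vsig4 were chosen after their values had been seen.

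Of 31 further efferocytosis genes, 22 could be assessed between the St18/Ccl24/Slc4a4 and monocyte-like gates, with 2 called lower and none higher, where 1.02% of all genes were called lower. Havcr1, which encodes the phosphatidylserine receptor TIM-1, had 7.53 CPM against 30.2 CPM in monocyte-like cells and 0.887 CPM in neutrophils. Timd4, which encodes TIM-4, had 7.53 CPM against 64.9 CPM in the DC gate, where 7 cells carried it, and none in neutrophils. The highest in the St18/Ccl24/Slc4a4 gate were Calr (1027 CPM), Elmo1 (835 CPM) and Ptprc (779 CPM), none of them called in that comparison. Against neutrophils, 9 of 21 were called higher and 2 lower, with a median ratio of 2.82 against 1.25 over all genes, of which 9.12% were called higher and 5.78% lower. The 9 included the scavenger receptors Cd36, at 11.8 times, and Msr1, on 73 UMIs against 1, both chosen after their values had been seen. Against the DC gate, 1 of 18 (Timd4) was called lower, where 0.58% of all genes were.

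Of 27 further iron and haem genes, 23 could be assessed against monocyte-like cells, with 1 called lower and none higher, where 1.02% of all genes were called lower. That gene was Hamp, which encodes hepcidin, the peptide that removes ferroportin from the surface, with 1 UMI against 88, which lay in 5 monocyte-like cells. The highest in the St18/Ccl24/Slc4a4 gate were the ferritin chains Ftl1 (2834 CPM) and Fth1 (2831 CPM) and the repressor of Hmox1, Bach1 (192 CPM). Against neutrophils, 2 of 22 were called higher and 2 lower, with a median of 1.30 against 1.25, where 9.12% of all genes were called higher and 5.78% lower. Lcn2, which encodes a siderophore-binding protein of secondary granules, had 3958 CPM in neutrophils and 15.1 CPM in the St18/Ccl24/Slc4a4 cells, and was chosen after its values had been seen. Against the DC gate, 1 of 22 (Cp) was called higher, where 4.03% of all genes were.

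Genes with a like pattern were sought by Pearson's r of log2(CPM + 10) over the 10 gates, among genes with at least 50 UMIs. The gates share cells and the pool, so r is a description. Nearest to Vcam1 were Prss57 (r = 0.997), a neutrophil serine protease, Haus5 and Svip. Nearest to Slc40a1 were Gm12589, Aph1b and Siglece, the last a lectin of myeloid cells (r = 0.99). For Hmox1 they were Flii (r = 0.96), Abr and Gcnt2, and for Axl Nceh1 (r = 0.95), Ndrg4 and Adar. C1qb was nearest to Dtx3 (r = 0.98), the chemokine gene Ccl7 and Trem2, a lipid receptor of macrophages, and Spic to Kcnq3 (r = 0.96), 4930447C04Rik and Prdm16. The nearest genes of Mertk (P2ry1, Chchd5, Zdhhc7), C1qa (Flrt2, Aldoc, Lifr) and C1qc (Gm44751, Gm29358, Cdkn2b) rested on 44, 10 and 12 UMIs of the gene itself, summed over the gates with shared cells counted in each.

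The 4 hashtags mark samples that the labels put in no condition, and their values are given separately for cells with 1 hashtag. Hmox1 in monocyte-like cells had 49.2 CPM in hashtag 9 (88 cells), 45.6 CPM in hashtag 10 (75 cells), 128 CPM in hashtag 11 (103 cells) and 130 CPM in hashtag 12 (68 cells). Of the 93 Hmox1 UMIs of hashtag 12, 56 lay in 1 cell, so that value rested largely on it. Axl in monocyte-like cells had 17.2, 30.7, 23.2 and 13.9 CPM in hashtags 9, 10, 11 and 12. C1qb had 12.5, 1.98, 7.45 and 1.39 CPM, from 16, 2, 9 and 1 UMIs. Vcam1 in the neutrophil gate had 405 CPM in hashtag 9 (39 cells), 121 CPM in hashtag 10 (10 cells), 162 CPM in hashtag 11 (41 cells) and 280 CPM in hashtag 12 (10 cells). The neutrophils of hashtag 11 had a median of 3453 UMIs and those of hashtag 9 of 19804, and the stages described above were not compared between hashtags. Slc40a1 had 7.25, 7.79, 27.9 and 28.0 CPM in the same order. Spic in the St18/Ccl24/Slc4a4 gate had 3.59, 0, 22.8 and 3.51 CPM, and the 13 UMIs of hashtag 11 were in 1 cell.

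**Figure D5:**
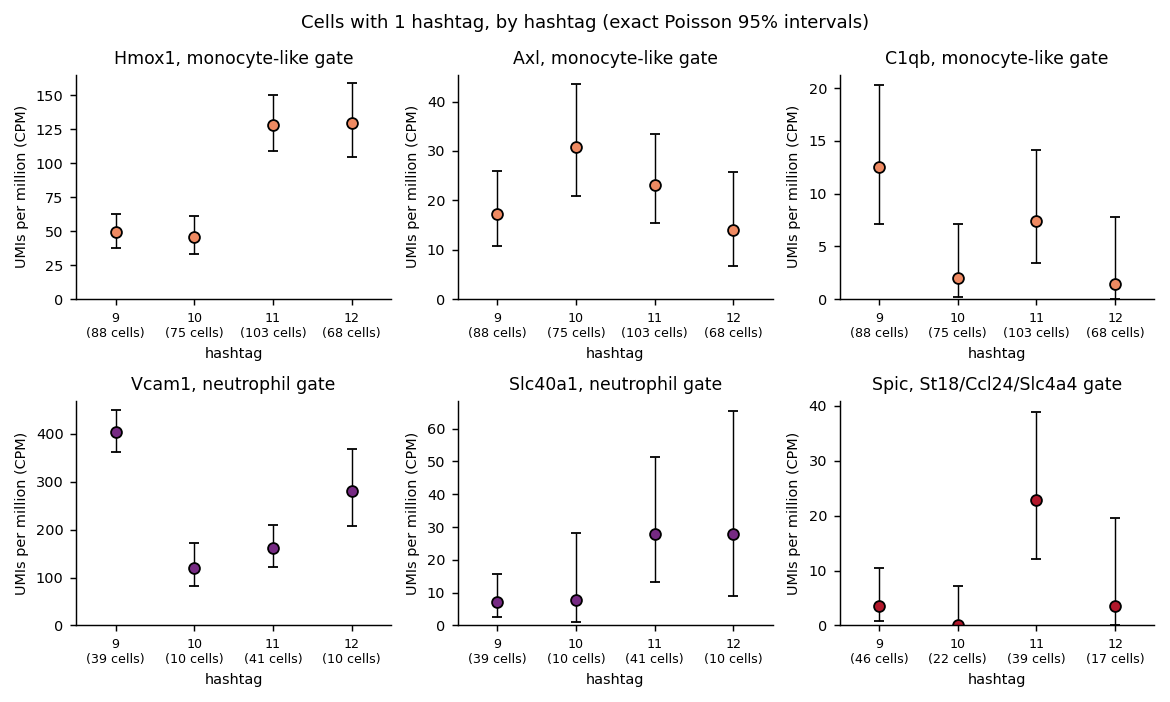
Level (y axes, CPM) of 6 gene and gate pairs in cells with 1 hashtag, by hashtag 9 to 12 (x axes, with the number of cells), with exact Poisson 95% intervals and hashtags not paired with conditions. Hmox1 in monocyte-like cells was 49.2, 45.6, 128 and 130 CPM, and Vcam1 in neutrophils 405, 121, 162 and 280 CPM. Of the 93 Hmox1 UMIs of hashtag 12, 56 lay in 1 cell.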

How the data were processed

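Gene expression and hashtags were sequenced as separate libraries of 1 pool of spleen cells. The deposited UMI counts came from the authors' run of Cell Ranger (7.2.0 per the submitters' processing notes, 7.0.0 in the matrix header) on GRCm38, without normalization. Whether intronic reads were counted is not given in the sources used here.

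Counts were summed over gated cells and given as CPM. A gate at 0 was set to 3 counts in a ratio. Scrublet, run through scanpy 1.11.5 at an expected doublet rate of 0.1, marked doublets, which were kept, and hashtags called with HTODemux (Seurat 5.3.0, R 4.3.3, quantile 0.85) within lineages. Thinning to 1000 UMIs left out 293 cells. Python 3.11.15, NumPy 2.4.6, SciPy 1.17.1, pandas 2.3.3 and matplotlib 3.10.9 were used. The ratio rule was tested on simulated data.

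The genes, gates and lists were chosen with earlier results of these data known. Named were the 9 genes, list genes past 4-fold in the Ccl24/St18/Slc4a4 gate against at least 2 other gates, the 3 highest of the rest, markers needed to check a gate, and the 3 nearest genes by pattern. Alternatives were stricter cell filters, a limit of 60% ribosomal protein UMIs, stricter gates, cells of 1 gate, no Scrublet-marked cells, cells with 1 hashtag, thinning, a mean over cells, leaving out the richest cell or a hashtag, folds of 2 and 8, and other UMI minima. Cells of 1 gate were those in exactly 1 of the 4 myeloid, B, T and NK gates. Such cells that were also in the basophil, Mpo/Elane or Ccr7/Fscn1 gate stayed in. Leaving out cells of both gates and the comparison of neutrophils with monocyte-like cells were added after seeing the data. The complement list against the DC gate is not reported here.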

Additional observations from a re-analysis of the deposited data

Results flagged for a closer look

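Cells that met no gate, 5371 in all, entered no comparison of the report, and 3 of the 9 genes had intervals there wholly above those of both B and T cells. Mertk had 1.00 CPM (0.676 to 1.43), of which 29 of 30 UMIs lay in the 1 cell described above, and without it the level was 0.0334 CPM. Hmox1 had 11.2 CPM (10.1 to 12.5), from 129 cells, and 9.88 CPM without its richest cell of 41 UMIs. Spic had 0.968 CPM (0.648 to 1.39), from 21 cells.

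The 504 barcodes removed by the filter on genes and mitochondrial UMIs held 629915 UMIs. In them, Vcam1 had 22.2 CPM (12.2 to 37.3) from 14 UMIs and Spic 6.35 CPM (1.73 to 16.3) from 4 UMIs, both with intervals wholly above those of B and T cells. C1qa, C1qb, C1qc, Mertk and Slc40a1 had no UMI there.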

How the results depend on the processing

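Hmox1 in the monocyte-like gate (72.1 CPM) was 79.7 with stricter gates, 94.95 in cells of exactly 1 gate, 84.7 in cells with 1 hashtag, 92.3 after thinning, 99.1 as a mean over cells, 58.1 without hashtag 11, 64.3 without hashtag 12 and 62.9 without the richest cell. Vcam1 in neutrophils (279 CPM) was 190 after thinning, 164 as a mean over cells, 206 without hashtag 9 and 246 without the richest cell, and Slc40a1 there (17.3 CPM) was 35.2 after thinning and 49.2 as a mean over cells. The summed C1q chains in monocyte-like cells (6.76 CPM) were 9.35 with stricter gates, 11.8 in cells of 1 gate, 4.29 after thinning (on 2 C1qb UMIs), 4.81 without hashtag 9 and 4.64 without the richest cell. Axl there stayed between 16.9 and 22.2 CPM. Vcam1 and Slc40a1 were highest in the neutrophil gate among the 4 myeloid gates in every one of these settings run for them, while for Hmox1 the DC gate gave way to the monocyte-like gate in cells of 1 gate, after thinning and without hashtag 12. The cause was not tested.

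The number of the 9 genes called between the St18/Ccl24/Slc4a4 and monocyte-like gates (0) was 1 with stricter gates and after thinning, 2 in cells of 1 gate, in cells with 1 hashtag and with shared cells left out, and 3 at a fold of 2. Of all genes, 1.55% were called higher and 1.16% lower with stricter gates, and 0.523% and 1.19% after thinning. In cells of 1 gate these shares were 2.70% and 2.98%, and with 1 hashtag 1.05% and 0.975%. They were 2.55% and 2.47% without shared cells, and 5.74% and 4.14% at a fold of 2. Against the DC gate (2) the number was 0 in cells of 1 gate, where only 1 of the 9 genes could be assessed. After thinning none could be assessed, so that setting cannot show a change. The number was 0 at a fold of 8, and 1 in cells with 1 hashtag and at a minimum of 50 UMIs. Of all genes, 5.4% were called higher and 0.695% lower in cells of 1 gate. These shares were 2.01% and 0.246% after thinning, and 1.05% and 0.193% at a fold of 8. They were 3.67% and 0.577% with 1 hashtag, and 2.51% and 0.298% at a minimum of 50 UMIs. Against neutrophils (3) the number was 1 after thinning, where 9.23% of all genes were called higher and 8.57% lower. It was 5 with no minimum, where 7.66% and 5.45% were. Between monocyte-like cells and the DC gate (1) the number was 0 with stricter gates, after thinning, at a fold of 8 and at a minimum of 50 UMIs. Of all genes, 3.27%, 2.27%, 0.538% and 2.05% were called higher in these settings, and 0.627%, 0.263%, 0.115% and 0.286% lower. The count stayed at 1 in cells of 1 gate and with 1 hashtag, but the gene was Hmox1 and Axl there instead of Vcam1. Between neutrophils and monocyte-like cells (4) the number was 1 after thinning, where 5.69% of all genes were called higher and 10.2% lower. Thinning leaves fewer genes with enough UMIs. The order of gates changed in some settings, in several of them on few UMIs, which cannot show an order. Vcam1 was 10.0 against 6.27 CPM in the St18/Ccl24/Slc4a4 and monocyte-like gates, and 6.26 against 8.35 CPM as a mean over cells. After thinning it was 0 against 4.29 CPM, on 0 and 2 UMIs, with overlapping intervals. Slc40a1 in these gates was 1.79 against 1.98 CPM, and 0.901 against 0.206 CPM without hashtag 11. That hashtag held 3 of the 5 Slc40a1 UMIs of the first gate and 11 of the 12 of the second. Hmox1 in the monocyte-like and DC gates was 94.95 against 13.9 CPM in cells of 1 gate, 92.3 against 81.6 CPM after thinning and 64.3 against 16.9 CPM without hashtag 12. The DC gate had 11 cells of 1 gate, and after thinning its 4 Hmox1 UMIs lay in 1 cell. Axl was higher in the St18/Ccl24/Slc4a4 than the monocyte-like gate after thinning and without hashtag 10 or 11. No paired analysis was possible because the series is 1 pool without replicate groups.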

Other observations

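In the monocyte-like gate, some iron genes differed and others were nearly level between cells with and without Hmox1. The cells with 3 or more Hmox1 UMIs were chosen by Hmox1 after its values had been seen, and the values are a description of 36 cells. Fth1 had 13582 CPM in them, 9916 CPM in the 64 cells with 1 or 2 Hmox1 UMIs and 4276 CPM in the 366 cells with none. Ftl1 had 6543, 4847 and 2752 CPM in the same order, and Slc11a1, which encodes the phagosomal metal transporter NRAMP1, had 65.9, 37.9 and 10.3 CPM. Among other genes of the list, Blvrb (143, 73.5 and 55.2 CPM), Fbxl5 (202, 136 and 93.1 CPM) and Bach1 (370, 269 and 180 CPM) had the same order. Tfrc, the transferrin receptor for iron uptake, went the other way, with 7.75, 57.9 and 108 CPM, the first from 4 UMIs. Some genes of the list were nearly level, such as Hmox2 (19.4, 25.6 and 21.9 CPM), Flvcr1 (42.6, 47.9 and 49.4 CPM) and Keap1 (23.3, 18.9 and 20.9 CPM), and Ireb2 was lower in the Hmox1-rich cells (38.8, 71.3 and 70.7 CPM). Lyz2, a gene of myeloid cells, was found in 100% of the Hmox1-rich cells and 39.1% of the cells without Hmox1 (3175 against 801 CPM), and its part in these differences was not tested. The Hmox1-rich cells also had more Spp1 (6843 against 1335 CPM without Hmox1), Slpi (1925 against 196 CPM) and Gpnmb (961 against 156 CPM), which encode osteopontin, a protease inhibitor and a lysosomal glycoprotein. Median depths were 11712.5, 11087.5 and 10143 UMIs. Cd79a, the B cell gene, had 7.75 CPM in the Hmox1-rich cells and 69.9 CPM in the cells without Hmox1.

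The basophil and Mpo/Elane gates, which shared 11 cells, carried several of the 9 genes. Basophils had Hmox1 in 11 of 39 cells and Vcam1 in 5, and the 5 Mertk UMIs of the gate lay in 1 cell, which was also in the Mpo/Elane gate. The Mpo/Elane cells had 10 C1qb UMIs in 5 of 69 cells, or 4.40 CPM (2.11 to 8.09), all of them in the 37 cells outside the neutrophil gate. That interval overlapped with the C1qb interval of the monocyte-like gate, with which 22 of the 69 cells were shared.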
